A study of Rattus norvegicus with 14 samples.

Results

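Notch receptors, the ligand Jag1 and the HES/HEY transcription factors were followed across 14 aortas, each from 1 male Dark Agouti rat. The genes were chosen by name: Notch1, Notch2, Notch3, Notch4, Jag1, Jag2, Hes1, Hey1, Hey2 and Heyl, of which 9 of 10 were matched among the 17019 genes of the table, and Jag2 is not analysed here. The 5 control rats were untreated and were killed after 14 weeks. The 5 uremic rats lost most of their kidney tissue to a 5/6 nephrectomy and lived with uremia for 14 weeks; after the first 8 weeks they were given alfacalcidol, a vitamin D prodrug, in doses of 30 ng, 3 per week for 6 weeks. The 4 control rats on vitamin D had intact kidneys; the dose and the length of their treatment are not given in the sources used here. A phosphate-rich diet is named in the study as needed for calcification, but not the groups that ate it, so diet cannot be told apart from group. Vessels were taken between heart and renal arteries, and their polyadenylated RNA came from all cells of the wall together. Vitamin D was present in every uremic rat, so a contrast with untreated controls holds uremia and vitamin D jointly.

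Notch receptors are membrane proteins that are cut when a ligand on a neighbouring cell binds them. The freed intracellular part joins the DNA-binding protein RBPJ and Mastermind co-activators in the nucleus and switches on genes of the HES and HEY families, which encode transcriptional repressors. In arteries, Jag1 on endothelium and smooth muscle activates Notch3, the main Notch receptor of arterial smooth muscle, which in mice is needed for the identity of these cells. Notch1 and Notch4 are best known from endothelium.

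In brief, Notch3 and Heyl were lower in every uremic aorta than in every control aorta, while Hey2, the most abundant of the 9 genes, and Jag1 did not pass the test in any comparison. Notch3 fell from 28.9 ± 3.53 to 17.1 ± 2.62 FPKM (fragments per kilobase of transcript, scaled to library size; mean ± SD, n = 5 each) and Heyl from 36.9 ± 6.65 to 16.1 ± 4.71 FPKM. Hey1 also passed the test as lower in uremic aortas, but on 2 to 20 reads per library and not in every alternative fit. In control rats on vitamin D, Heyl averaged 22.4 ± 5.43 FPKM (n = 4), between the other groups, and did not pass the test against control. Between uremic rats and these rats limma called 0 of the 9 genes (adjusted p = 0.0596 for Notch3 and 0.165 for Heyl), against 13.2% of all tested genes. Smooth muscle markers were also lower in uremic than in control aortas. Relative to their mean level, Notch3 and Heyl overlapped between uremic and control aortas. On this relative log2 scale the group means differed by 0.07 for Notch3 and by -0.38 for Heyl.

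The promoters of 4 genes are shown, chosen by their levels in these data: Notch3 and Heyl, which fell together, and Hey2 and Hes1, which did not. Each covers 250 bases before to 50 after the RefSeq start of the gene, in the GRCr8 build and 5′ to 3′ on the strand of the gene. Notch3 is at chr7:11834536-11834835 (minus strand), Heyl at chr5:140793021-140793320 (plus), Hey2 at chr1:28640850-28641149 (plus) and Hes1 at chr11:84212996-84213295 (minus). Capitals mark TGGGAA, the core letters of the RBPJ motif, or TTCCCA, the same on the other strand.
Notch3: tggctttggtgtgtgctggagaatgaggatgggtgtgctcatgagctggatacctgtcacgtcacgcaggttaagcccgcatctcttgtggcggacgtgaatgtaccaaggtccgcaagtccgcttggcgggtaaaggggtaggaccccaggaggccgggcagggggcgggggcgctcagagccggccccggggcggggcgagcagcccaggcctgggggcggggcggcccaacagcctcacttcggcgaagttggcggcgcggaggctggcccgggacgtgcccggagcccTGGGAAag
Heyl: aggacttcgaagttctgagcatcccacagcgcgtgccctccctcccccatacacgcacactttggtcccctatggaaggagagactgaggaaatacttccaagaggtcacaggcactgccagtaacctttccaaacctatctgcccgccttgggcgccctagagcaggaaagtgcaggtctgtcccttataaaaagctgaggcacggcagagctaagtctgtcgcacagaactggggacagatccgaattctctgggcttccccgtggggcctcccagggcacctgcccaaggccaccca
Hey2: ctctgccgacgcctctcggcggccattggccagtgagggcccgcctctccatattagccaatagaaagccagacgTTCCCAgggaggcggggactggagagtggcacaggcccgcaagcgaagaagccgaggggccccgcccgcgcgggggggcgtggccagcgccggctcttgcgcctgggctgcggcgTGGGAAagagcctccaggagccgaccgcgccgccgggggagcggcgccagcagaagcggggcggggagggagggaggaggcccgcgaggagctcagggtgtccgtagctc
Hes1: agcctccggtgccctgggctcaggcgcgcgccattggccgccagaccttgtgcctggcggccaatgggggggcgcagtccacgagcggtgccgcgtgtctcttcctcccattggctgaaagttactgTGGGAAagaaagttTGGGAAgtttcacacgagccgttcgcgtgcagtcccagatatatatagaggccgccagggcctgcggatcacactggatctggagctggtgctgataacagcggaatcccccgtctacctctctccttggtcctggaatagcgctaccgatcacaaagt
Hey2 and Hes1 each held 2 matches, Notch3 held 1, at base 293 of the window and so after the start, and Heyl held none. Of the analysed genes not shown, Notch4 held 2 matches, and Notch1, Notch2 and Jag1, which did not pass the test either, held none. For Hey1 no promoter was available, so it could not be searched. A link between matches and levels was not tested. TGGGAA on either strand occurred in 25.7% of all 33469 RefSeq promoters of this length. A palindromic E-box of the letters CACGTG was found in 6.42% of promoters and the CArG box of smooth muscle genes in 1.64%, and neither in these 4. A match describes letters only.

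The libraries held between 1402119 and 4793741 whole reads over the 10950 genes whose reads could be recovered from the FPKM steps. Uremic rat 27, whose label gives a pair of index sequences, was the deepest, and rat 37 of the controls on vitamin D the shallowest. Among the 9 genes, the median number of reads per library was 769 for Hey2, 473.5 for Notch3, 337.5 for Heyl, 231 for Jag1, 143.5 for Notch1 and for Notch2, 67.5 for Notch4, 34 for Hes1 and 8.5 for Hey1. Markers of the labelled tissue were present in every library. The summed level of 10 smooth muscle markers lay between 10035 and 31434 FPKM, against 204 to 467 FPKM for 14 endothelial and 82.2 to 820.2 FPKM for 12 macrophage markers.

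In control aortas the levels, which FPKM scales by transcript length, ran from Hey2 at 102 ± 17.7 FPKM through Heyl, Notch3 and Jag1 to Hes1, Notch1, Hey1, Notch2 and Notch4. Hey2 stood apart from Heyl, Notch3 from Jag1, Jag1 from Hes1, and Notch2 from Notch4, with no overlap between the ranges of the 5 rats. Heyl and Notch3 overlapped, as did the neighbours from Hes1 down to Notch2. In uremic aortas Hey2 was still first, at 118 ± 16.1 FPKM, and Notch3, Heyl and Jag1 followed at 17.1, 16.1 and 15.1 FPKM with overlapping ranges.

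**Figure D1:**
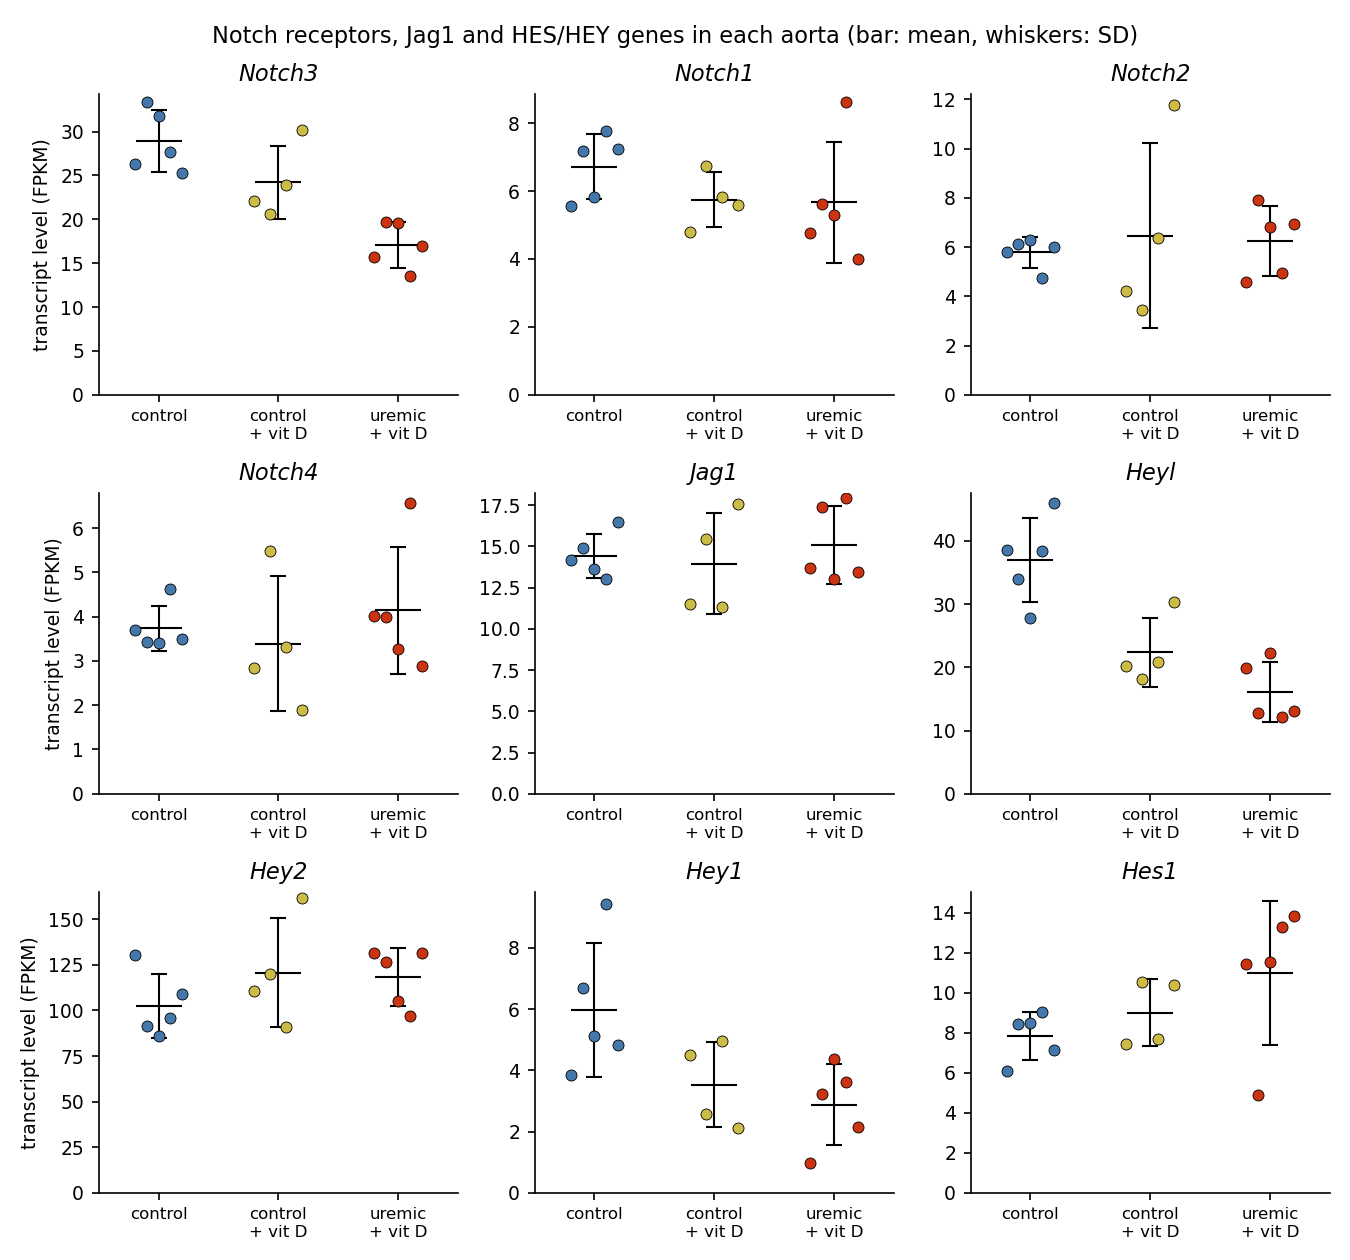
Transcript level (FPKM, linear axes from 0) of 9 Notch pathway genes in each aorta, 1 point per rat, with the mean (bar) and SD (whiskers) of each group. The 5 uremic points of Notch3 (13.6 to 19.7 FPKM) and Heyl (12.1 to 22.3 FPKM) lie below all 5 control points (25.2 to 33.3 and 27.8 to 45.9 FPKM).

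Among the receptors, Notch3 was the most abundant and the one that differed. Its level was 26.3, 33.3, 31.8, 27.7 and 25.2 FPKM in control rats 41, 42, 43, 44 and 46. In uremic rats 9, 17, 20, 27 and 28 it was 15.7, 19.7, 19.6, 13.6 and 16.9 FPKM. The highest uremic value lay below the lowest control value, and the mean was 1.69-fold lower. On the scale of log2(FPKM + 1), which understates changes of low genes, the difference was -0.73 (SE 0.13, limma adjusted p = 0.00157). In rats 36, 37, 38 and 39, the controls on vitamin D, Notch3 stood at 22.1, 20.7, 23.9 and 30.1 FPKM. All 4 lay above all 5 uremic rats, and 1 of them, rat 39, lay within the control range.

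Between control rats on vitamin D and control rats, Notch3 differed by -0.25 on the log2 scale (95% interval -0.55 to 0.05, limma adjusted p = 0.353). Between uremic rats and control rats on vitamin D the difference was -0.48 (SE 0.15, limma adjusted p = 0.0596), which did not pass the threshold of 0.05 although the groups did not overlap. It passed in 4 of 11 alternative fits: with 1 fit of all 3 groups (adjusted p = 0.0295), with that fit and the brown fat covariate (0.0238), with libraries scaled to equal totals (0.0183) and with limma voom on the recovered reads (0.0493). In the authors' deposited table, the q values of Notch3 are 0.000653 for uremic against control, 0.391 for vitamin D against control and 0.0376 for uremic against control with vitamin D. The gene lies on chromosome 7 at 14294586 to 14345774 in the rn5 build, and no other gene of the table overlaps this interval.

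The other receptors showed no difference past the test. Notch1, a receptor of endothelium, had 5.57, 7.19, 5.82, 7.78 and 7.24 FPKM in the control rats. In uremic rats 9, 17, 20, 27 and 28 it had 4.76, 5.63, 5.28, 8.64 and 4.01 FPKM. Rat 27 was above every control rat and the other 4 were within or below the control range, so that the difference of -0.24 (95% interval -0.62 to 0.14) carried a wide interval. In the controls on vitamin D, Notch1 lay between 4.79 and 6.75 FPKM, a difference of -0.19 (95% interval -0.52 to 0.13) from control.

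Notch2, a receptor found in many cell types, ranged from 4.73 to 6.29 FPKM in control, from 4.58 to 7.90 FPKM in uremic and from 3.46 to 11.8 FPKM in control rats on vitamin D. Its difference between uremic and control aortas was 0.07 (95% interval -0.26 to 0.41), and its sign turned with equal totals, quantile normalization, the brown fat covariate and without uremic rat 17. Rat 39 of the controls on vitamin D had the 11.8 FPKM of Notch2, and it also had the highest values of its group for Notch3, Jag1, Heyl and Hey2. The same rat had the lowest level of the endothelial markers, 3.41 as the mean log2 value of 14 genes, against 3.99 to 4.28 in the other rats on vitamin D, and the highest level of the smooth muscle markers in its group, 10.05 as the mean log2 value of 10 genes, against 9.15 to 9.72; the part of cell content in its values was not tested.

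Notch4, a receptor of endothelium, averaged 3.73 ± 0.512 FPKM in control, 4.15 ± 1.44 FPKM in uremic and 3.38 ± 1.52 FPKM in control rats on vitamin D. Uremic rat 27 was the highest at 6.57 FPKM, above every control rat, and this rat also had the highest mean log2 level of endothelial markers of all libraries, 4.67. The Notch4 interval in the table spans 215228 bases of chromosome 20 and overlaps 15 other genes, among them C4a and C4b, whereas RefSeq gives Notch4 a length of 24104 bases in the GRCr8 build. How reads of overlapping genes were assigned is not given in the sources used here, so the Notch4 values are uncertain.

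Notch3 held 63.8% ± 3.05 of the summed FPKM of the 4 receptors in control aortas (60.1% to 67.2%), 60.9% ± 3.40 in controls on vitamin D and 51.6% ± 6.49 in uremic aortas (40.2% to 56.1%). The uremic and control ranges of this share did not overlap. The share of each of the other receptors was higher in uremic aortas on average, at 18.7% against 12.9% for Notch2, 17.1% against 14.9% for Notch1 and 12.6% against 8.34% for Notch4. These shares are a description without a test.

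Jag1, the ligand that activates Notch receptors on neighbouring cells, did not pass the test in any comparison. It had 14.2, 14.9, 13.6, 13.0 and 16.5 FPKM in the control rats and 13.7, 17.4, 13.0, 17.9 and 13.4 FPKM in the uremic rats. The groups overlapped over most of their range, and the difference was 0.05 (95% interval -0.22 to 0.32, limma adjusted p = 0.801), turning to -0.05 with libraries scaled to equal totals. The interval leaves out a change of the size seen for Notch3. In controls on vitamin D, Jag1 averaged 13.9 ± 3.06 FPKM (95% interval of the difference from control -0.39 to 0.26). The ratio of Notch3 to Jag1, chosen after its values were seen, was 2.02 ± 0.327 in control, 1.77 ± 0.332 in control with vitamin D and 1.16 ± 0.271 in uremic aortas.

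Among the HES/HEY genes, Heyl, a target of Notch3 in smooth muscle, showed the largest difference of the 9 genes between uremic and control aortas on the log2 scale. It had 38.6, 34.0, 27.8, 38.3 and 45.9 FPKM in control rats 41, 42, 43, 44 and 46. In uremic rats 9, 17, 20, 27 and 28 it had 19.9, 12.8, 22.3, 12.1 and 13.2 FPKM. The groups did not overlap, and the mean was 2.30-fold lower (log2 difference -1.18, SE 0.18, limma adjusted p = 0.000705). In rats 36, 37, 38 and 39, the controls on vitamin D, Heyl had 20.2, 18.2, 20.8 and 30.3 FPKM.

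Rats 36, 37 and 38 thus lay below every control rat in Heyl, and rat 39 lay above 1 of the 5 control rats. The difference between control rats on vitamin D and control rats was -0.71 (SE 0.17, unadjusted p = 0.00144, limma adjusted p = 0.0905). It passed the test in 0 of the 11 alternative fits and in 1 of 9 fits that each left out 1 rat. That was the fit without rat 39 (limma adjusted p = 0.0219), where the calls over all genes also rose, from 13 to 393. The authors' deposited table gives q = 0.00221 for this comparison. Between uremic rats and controls on vitamin D the difference was -0.47 (95% interval -0.93 to -0.01, limma adjusted p = 0.165; q = 0.0504 in the authors' deposited table). Heyl lies on chromosome 5 at 144713816 to 144730808 in rn5, and no other gene of the table overlaps it.

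Hey2, which encodes a repressor of the same family that is expressed in arterial smooth muscle, did not fall with Heyl. It had 130.2, 91.4, 85.8, 95.8 and 109.0 FPKM in the control rats and 131.2, 126.8, 105.2, 97.1 and 131.6 FPKM in the uremic rats. The ranges overlapped, and the difference was 0.21 (95% interval -0.08 to 0.51, limma adjusted p = 0.296). Controls on vitamin D had 110.6, 120.0, 90.8 and 161.4 FPKM, a difference of 0.22 from control (95% interval -0.15 to 0.59).

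The ratio of Heyl to Hey2, chosen after its values were seen and given without a test, was 0.363 ± 0.0519 in control (0.297 to 0.421). It was 0.188 ± 0.0318 in controls on vitamin D (0.151 to 0.229) and 0.138 ± 0.0466 in uremic aortas (0.10 to 0.212). Every control rat thus had a higher ratio than every rat given vitamin D, with or without uremia, while the latter groups overlapped. Of the summed FPKM of Hes1, Hey1, Hey2 and Heyl, Heyl held 24.1% ± 2.45 in control, 14.4% ± 1.95 in control with vitamin D and 10.8% ± 3.05 in uremic aortas.

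**Figure D2:**
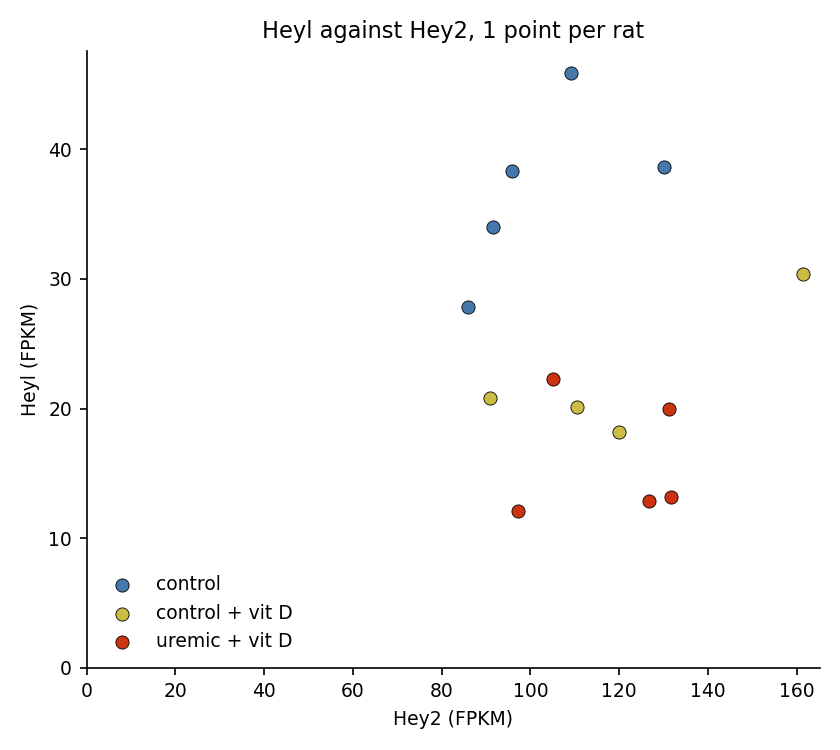
Heyl against Hey2 (both in FPKM, linear axes from 0), 1 point per rat, coloured by group. Hey2 overlaps between the 3 groups (85.8 to 130.2, 90.8 to 161.4 and 97.1 to 131.6 FPKM), whereas Heyl is 27.8 to 45.9 FPKM in control, 18.2 to 30.3 FPKM in control with vitamin D and 12.1 to 22.3 FPKM in uremic rats.

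Hey1, a HEY repressor best known from endothelium and the heart, was the lowest in reads of the 9 genes. It had 3.83, 6.69, 5.13, 9.42 and 4.81 FPKM in control rats and 0.980, 3.24, 4.36, 3.63 and 2.14 FPKM in uremic rats. The difference was -0.88 (SE 0.28, limma adjusted p = 0.0379), with uremic rat 20 above control rat 41. The call ended when control rat 42, 43 or 44 or uremic rat 9 or 28 was left out (adjusted p up to 0.0898), with voom on the recovered reads (0.0671), without a filter on low values (0.0608), with a pseudocount of 0.01 (0.0504) and with the brown fat covariate (0.115). In the authors' deposited table its q is 0.0642. In controls on vitamin D it averaged 3.54 ± 1.4 FPKM (difference from control -0.62, 95% interval -1.19 to -0.06, limma adjusted p = 0.227).

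Hes1, a HES repressor that other pathways besides Notch also induce, was higher on average in uremic aortas without passing the test. It had 6.09, 8.42, 8.49, 9.04 and 7.14 FPKM in control rats and 11.4, 4.86, 11.6, 13.3 and 13.8 FPKM in uremic rats. Uremic rat 17 was below every control rat and the other 4 were above every control rat. The difference was 0.38 (95% interval -0.11 to 0.88, limma adjusted p = 0.260), and 0.62 without rat 17 (adjusted p = 0.00844). Rat 17 had 17 reads of Hes1, and the control rats had 24 to 38. In controls on vitamin D the level was 7.43, 10.5, 7.69 and 10.4 FPKM (difference from control 0.18, 95% interval -0.17 to 0.52).

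Over the 9 genes, 3 were called lower and 0 higher in uremic against control aortas, where limma called 21.9% of the 9957 tested genes, 10.5% as lower and 11.4% as higher. The median difference of the 9 genes was 0.05, against 0.00 over all tested genes, and their differences ran from -1.18 to 0.38. The groups did not overlap in 2 of the 9 genes (Notch3 and Heyl), both lower, against 15.7% of all genes without overlap and 7.32% without overlap and lower. In control with vitamin D against control, limma called 0 of the 9 genes, against 0.134% of 9693 genes (0.124% lower and 0.0103% higher). Heyl and Hey1, 2 of the 9, had an unadjusted p under 0.05 and were lower, against 9.15% of all genes, and 0 of the 9 were without overlap, against 5.72% (3.34% lower). In uremic against control with vitamin D it called 0 of 9, against 13.2% of 9916 genes (6.03% lower and 7.19% higher). Notch3 and Heyl had an unadjusted p under 0.05 and were lower, against 13.8% of all genes, and Notch3 was the 1 gene without overlap, against 12.8% (5.69% lower). With voom on the recovered reads these comparisons had 0 and 1 of the 9 genes called. The comparisons share libraries, so their results are not independent of each other.

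**Figure D3:**
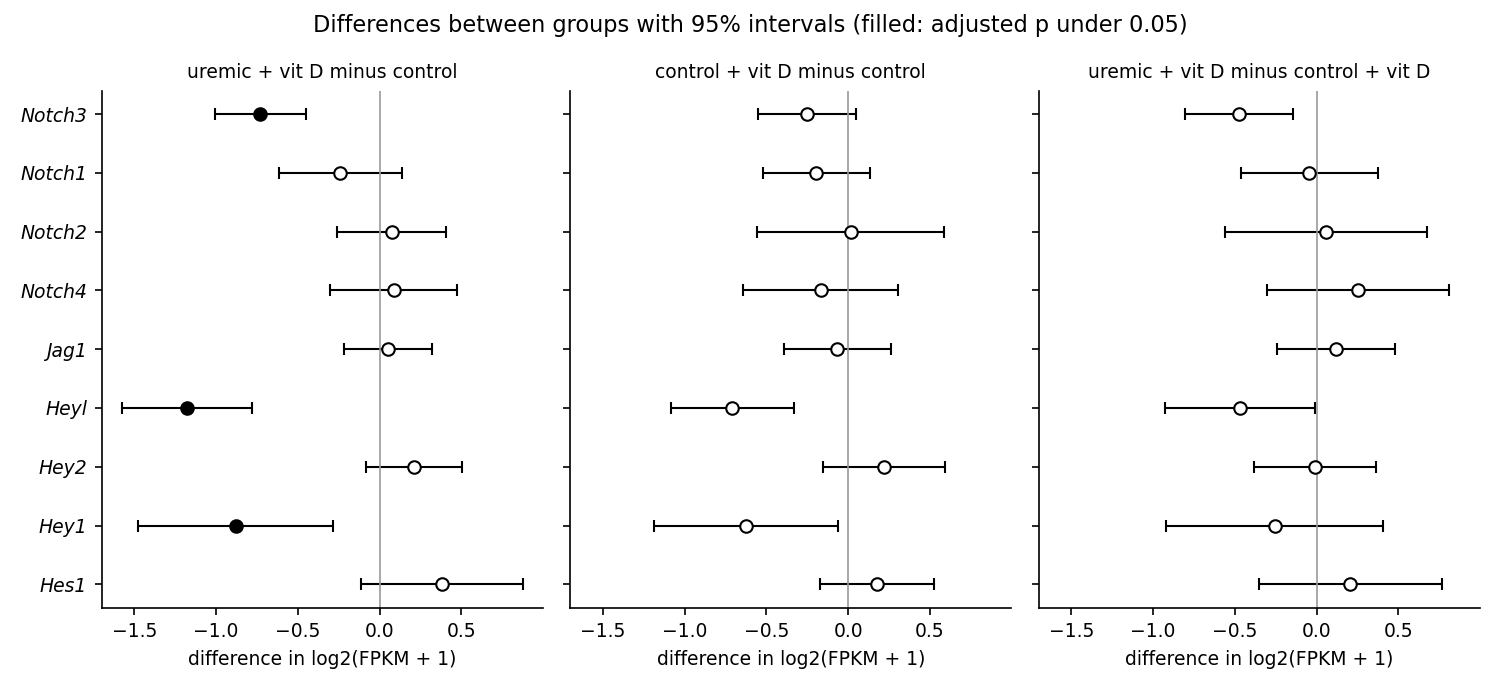
Difference between groups in log2(FPKM + 1) for 9 genes in the 3 comparisons, with 95% intervals from limma; filled points have an adjusted p under 0.05. Notch3 (-0.73), Heyl (-1.18) and Hey1 (-0.88) are filled in the comparison of uremic with control, and no point is filled in the other 2.

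Markers of smooth muscle moved with Notch3 and Heyl. Of 10 smooth muscle markers, limma called 7 lower and 0 higher (median -0.81 on the log2 scale), where 10.5% of all tested genes were called lower. In control with vitamin D against control it called 0 of the 10, with a median of -0.22, where Heyl differed by -0.71 and Notch3 by -0.25. Their summed level was 22553 to 31434 FPKM in control, 16570 to 29417 FPKM in control with vitamin D and 10035 to 21119 FPKM in uremic aortas. In whole aorta, fewer cells of a type and less RNA per cell cannot be told apart. Set against the mean log2 level of these markers in the same library, Notch3 stood at -4.99 ± 0.25 in control, -5.01 ± 0.20 in control with vitamin D and -4.92 ± 0.26 in uremic aortas, with overlapping ranges. Its fall was thus about as large as that of the markers.

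On the same relative scale Heyl stood at -4.65 ± 0.33 in control, -5.13 ± 0.19 in control with vitamin D and -5.03 ± 0.52 in uremic aortas, with overlap. Hey2 moved the other way against the markers, from -3.21 ± 0.28 in control to -2.19 ± 0.22 in uremic aortas, and the groups did not overlap. Of the 9 genes, 4 (Notch2, Notch4, Jag1 and Hey2) had relative levels that did not overlap between uremic and control, all higher. This held for 44.5% of all tested genes, so a share of this size is not particular to them.

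Endothelial markers changed less: of 14, 1 was lower and 0 higher in uremic against control aortas, with a median of 0.12. Of all tested genes, 10.5% were called lower and 11.4% higher there. Against control with vitamin D, where 7.19% of all tested genes were called higher, 2 of the 14 endothelial markers were higher and 0 lower. Relative to their mean log2 level, Notch1 stood at -1.26 ± 0.09 in control (-1.35 to -1.12) and -1.56 ± 0.11 in uremic aortas (-1.69 to -1.4), without overlap. Uremic rat 27, the highest in Notch1 as measured, had -1.4 on this scale, close to the lowest control rat, whose value was -1.35. Notch3, Hey1 and Heyl did not overlap on this scale either, all lower, so that 4 of 9 genes did not overlap, against 8.90% of all tested genes. The mean of the endothelial markers itself differed by only 0.06 between these groups. For Notch3, Hey1 and Heyl the relative values thus largely repeat their differences in FPKM and are no separate result. Notch4 and Jag1 overlapped. These relative levels carry no test.

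**Figure D4:**
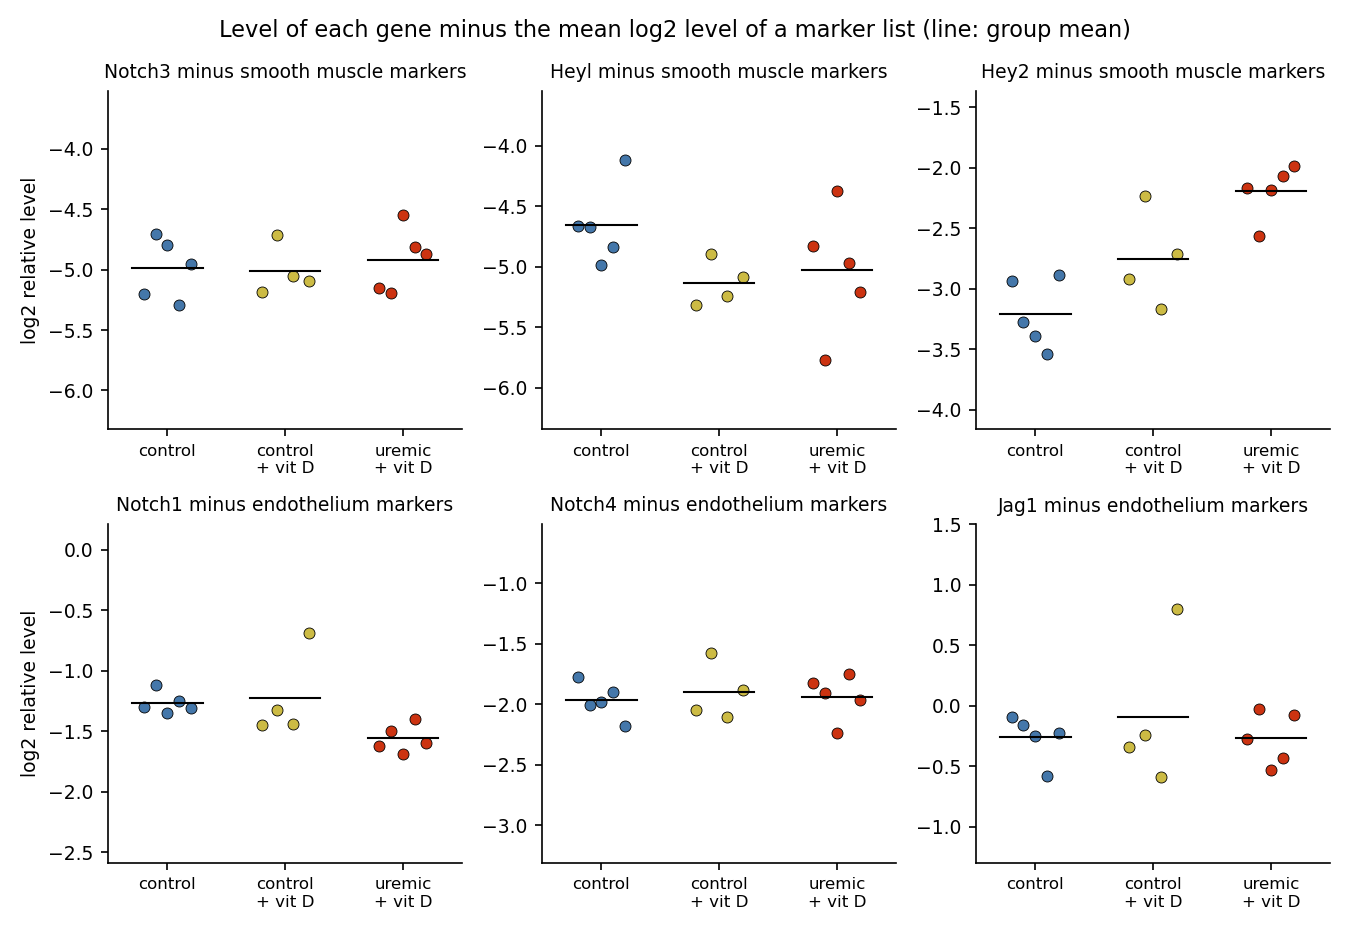
Level of a gene minus the mean log2(FPKM + 1) of 10 smooth muscle markers (top row) or 14 endothelial markers (bottom row) in the same library, 1 point per rat, with the group mean as a line; all panels span the same number of log2 units. Notch3 stays between -5.01 and -4.92 on average in the 3 groups. Relative to the markers, Hey2 is higher and Notch1 lower in uremic than in control rats. The levels of Hey2 and Notch1 themselves did not pass the test. Between uremic and control rats, 44.5% of all tested genes did not overlap relative to smooth muscle markers, and 8.90% relative to endothelial markers.

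Other cell types moved too. Of 12 macrophage markers, 10 were called higher and 0 lower in uremic than in control aortas, where 11.4% of all tested genes were called higher. Their summed levels were 576 to 820.2 FPKM in uremic against 82.2 to 202 FPKM in control aortas. For fibroblasts, the summed level of 7 marker genes was 3074 to 5112 FPKM in control, 1886 to 2817 FPKM in control with vitamin D and 1896 to 4030 FPKM in uremic aortas. Between control with vitamin D and control these sums did not overlap. Limma called 2 of the 7 lower and 0 higher there, against 0.124% of all tested genes called lower. Between uremic and control the sums overlapped, and 5 of the 7 genes differed by less than 0. Limma called 4 lower and 0 higher, against 10.5% of all tested genes called lower. Between uremic and control with vitamin D it called 1 higher and 1 lower, against 7.19% and 6.03% of all tested genes, with a median of -0.09. The part of these cells in the level of Heyl was not tested. The summed level of 7 brown adipocyte markers was 327 to 823 FPKM in control, 416 to 1678 FPKM in control with vitamin D and 125 to 600.0 FPKM in uremic aortas; Elovl3 was listed at 0 in all libraries. With the mean log2 level of these brown fat markers as a covariate in 1 fit of all 3 groups, Notch3 differed by -0.87 (adjusted p = 0.000278) and Heyl by -1.30 (adjusted p = 0.000399) between uremic and control aortas. In control with vitamin D against control, the same fit gave -0.05 for Notch3 and -0.54 for Heyl (adjusted p = 0.410).

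The rest of the pathway was read from a list of 72 further genes, of which 60 were matched and 50 tested in uremic against control aortas. In that comparison 8 rose and 4 fell, which is 24.0% of those tested, against 21.9% of all genes, and their median was 0.02. In control with vitamin D against control 0 of 48 were called. In uremic against control with vitamin D 5 of 49 rose and 0 fell, 10.2% against 13.2% of all genes.

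Of 5 glycosyltransferases, which set how receptors respond to their ligands, 2 were called higher in uremic against control aortas, where 11.4% of all tested genes were called higher. Lfng, the Fringe enzyme that makes Notch respond more to Delta than to Jagged ligands, rose from 3.02 ± 1.39 to 8.18 ± 4.6 FPKM (log2 difference 1.14, SE 0.29, limma adjusted p = 0.0127). It was also higher than in controls on vitamin D, which had 3.02 ± 1.31 FPKM (limma adjusted p = 0.0322; the call ended without rat 36, 39 or 9 and under 3 alternative fits, adjusted p up to 0.0980). Poglut1, which adds glucose to the receptors, rose from 6.32 ± 1.69 to 10.2 ± 1.89 FPKM (limma adjusted p = 0.0257). Its call was lost with the brown fat covariate (adjusted p = 0.0950) and in 5 fits that each left out 1 rat: 42, 43, 9, 20 or 28.

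Of 8 tested genes of receptor cleavage, Adam10 rose and Psenen fell when uremic aortas were compared with control. Of all tested genes, 11.4% were called higher and 10.5% lower in this comparison, and 15.7% did not overlap between the groups. Adam10, the protease that makes the first cut after ligand binding, rose from 9.57 ± 0.965 to 14.0 ± 1.49 FPKM, with no overlap between the groups (log2 difference 0.50, SE 0.11, limma adjusted p = 0.00765, and 0.0533 with libraries scaled to equal totals). Psenen, a subunit of the γ-secretase that makes the final cut, fell from 193 ± 32.5 to 133 ± 19.9 FPKM (limma adjusted p = 0.0192); the call ended with quantile normalization (adjusted p = 0.0840) and without control rat 43 or uremic rat 20.

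In the nucleus, none of the 5 tested genes of the RBPJ complex and its co-activators was called by limma in uremic against control aortas. Rbpj itself differed by 0.40 (SE 0.14, limma adjusted p = 0.0572). Of 11 co-repressors 2 fell, and of 7 inhibitors and degradation factors 1 fell, where limma called 10.5% of all tested genes lower. Hdac1, a histone deacetylase, fell from 30.0 ± 3.34 to 20.7 ± 2.74 FPKM (limma adjusted p = 0.00873). Ctbp1, a co-repressor that also serves other pathways, fell from 48.8 ± 5.32 to 37.4 ± 3.80 FPKM (limma adjusted p = 0.0277), a call lost with quantile normalization and in 4 fits that each left out 1 rat: 43, 44, 20 or 28 (highest adjusted p 0.0694). Among 7 inhibitors and degradation factors, Dtx3, a ubiquitin ligase of the Deltex family, fell from 53.3 ± 10.1 to 26.2 ± 6.24 FPKM without overlap (log2 difference -1.01, SE 0.19, limma adjusted p = 0.00217). Lower values without overlap held for 7.32% of all tested genes. Nrarp, a feedback inhibitor that Notch induces, differed by -0.20 (SE 0.20). The Delta ligands Dll1 and Dll4 were low, at 1.58 ± 0.871 and 2.86 ± 1.06 FPKM in uremic aortas, and did not pass the test.

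Reported Notch targets outside the HES/HEY families, which many other signals also control, included 5 of 8 called higher in uremic against control aortas, where 11.4% of all tested genes were called higher. Ccnd1 (cyclin D1) rose from 20.8 ± 3.24 to 86.2 ± 40.03 FPKM, and Snai1, a repressor of epithelial and endothelial genes, from 17.4 ± 3.96 to 53.1 ± 23.0 FPKM. Myc rose from 9.46 ± 4.82 to 20.2 ± 3.58 FPKM, and Cdkn1a, which encodes the cyclin kinase inhibitor p21, from 38.7 ± 5.36 to 78.5 ± 20.5 FPKM. The uremic and control groups did not overlap in any of these 4 genes, which were named because they were called. Of all tested genes, 15.7% did not overlap. Snai2 was called at 2.99 ± 1.41 against 1.09 ± 0.905 FPKM (limma adjusted p = 0.0450); the call was lost in 8 of 10 alternative fits and in 7 fits that each left out 1 rat: 42, 43, 46, 9, 20, 27 or 28. Ccnd1, Snai1 and Myc also rose against controls on vitamin D (limma adjusted p = 0.00598, 0.0106 and 0.0273). Myc lost that call without rat 17, 20 or 38, with equal totals and with the brown fat covariate, and Snai1 lost it with that covariate (adjusted p = 0.244). Bhlhe40, a repressor related to the HES family, was called higher than in controls on vitamin D, at 94.4 ± 32.6 against 41.7 ± 21.5 FPKM (limma adjusted p = 0.0305), and lost the call in 6 fits that each left out 1 rat (36, 38, 39, 9, 20 or 28), with the brown fat covariate (adjusted p up to 0.169) and without a filter. Hes3 and Hes5 were listed at 0 in all 14 libraries.

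**Figure D5:**
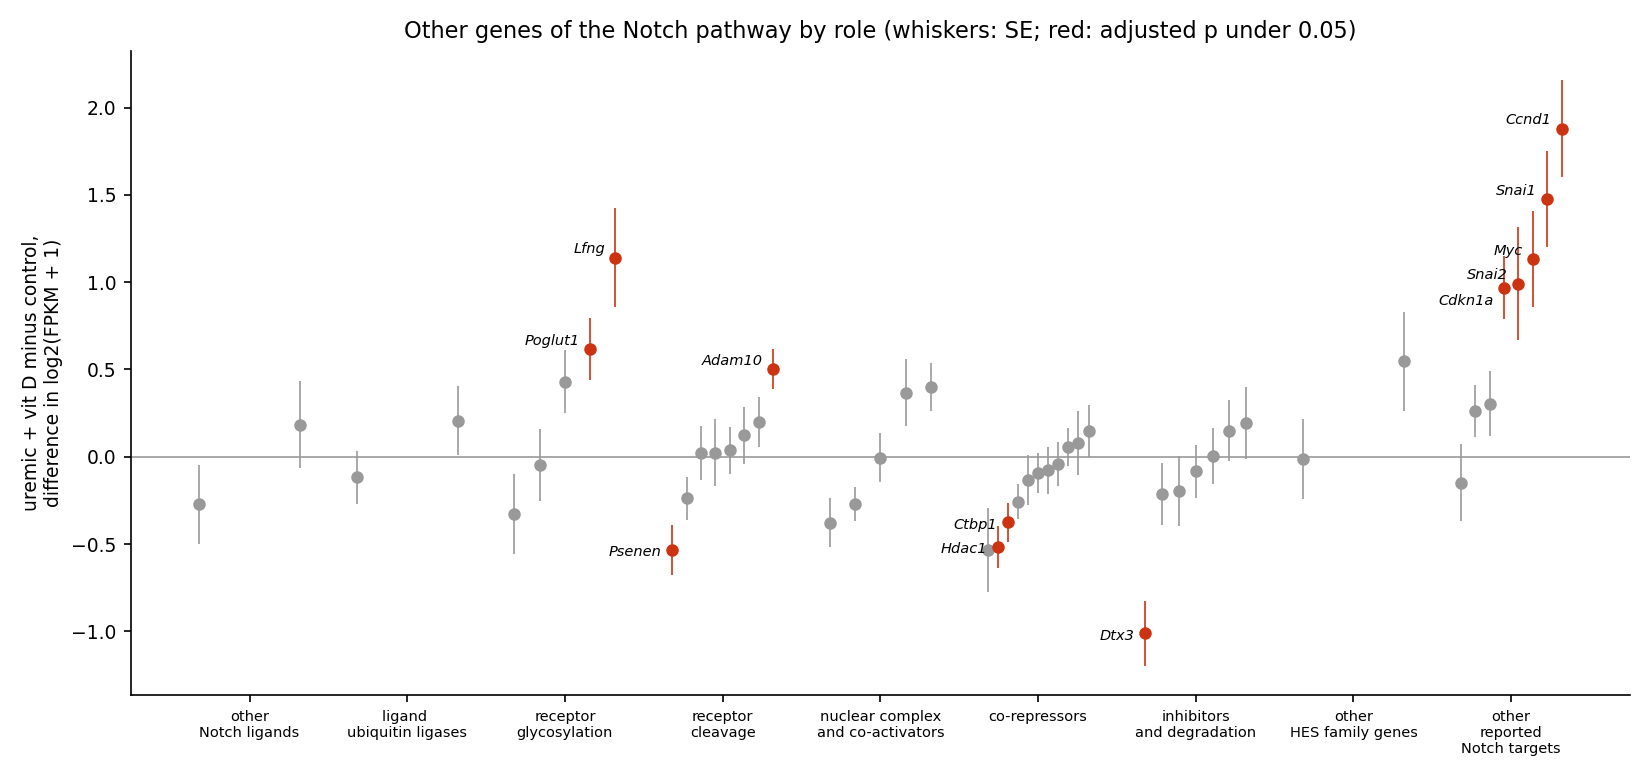
Difference between uremic and control aortas in log2(FPKM + 1) for 50 other genes of the Notch pathway, grouped by role, with SE; red points, named, have an adjusted p under 0.05. The 5 red points among reported targets and the 2 among glycosyltransferases are above 0. The 2 red points of co-repressors and the 1 of inhibitors are below 0, and receptor cleavage has 1 on each side. Of all tested genes, limma called 11.4% higher and 10.5% lower.

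Over the 14 libraries, the genes whose log2 levels were most like those of Notch3 among 7150 genes with a mean of at least 5 FPKM were Mtss1l, Papd7 and Ltbp4, with r of 0.97, 0.96 and 0.95. Ltbp4, a latent TGF-beta binding protein, averaged 179 ± 23.0 FPKM in control, 119 ± 42.6 FPKM in control with vitamin D and 58.5 ± 10.7 FPKM in uremic aortas. For Heyl they were Kctd15, Arvcf and Fblim1, with r of 0.95, 0.92 and 0.92. Fblim1, a protein of cell adhesions that binds filamin, averaged 611 ± 99.3, 412 ± 119 and 295 ± 69.3 FPKM in the same order. For Hey1 they were Gstk1, Fam108a1 and Dusp16, with r between 0.80 and 0.83. The libraries of a group share their treatment, and the pairs were picked as the highest r in these same libraries, so these values describe likeness only. Taken as deviations from the group means, r was 0.67 to 0.88 for the 9 pairs, values that the same selection also raises.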

How the data were processed

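Groups were taken from the treatment label. The deposited FPKM values were made by the authors with TopHat2 2.0.10, cutadapt 1.3, Cuffdiff and Cufflinks 2.1.1 on build rn5, per the submitters' processing notes, with settings not given in the sources used here; the header names no unit, so FPKM is inferred from these tools. The authors' q values (adjusted p-values) in the deposited table were used for comparison only. Reads were recovered where FPKM were whole multiples (within 0.1 read) of a step set by gene and library. This held for 10950 genes, 97.0% of the 11294 seen in 8 or more libraries, and for 0.9% of 1000 genes after shuffling. The reads are the smallest whole numbers possible, so true ones may be a multiple.

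For each comparison limma 3.58.1 (R 4.3.3) was fitted to log2(FPKM + 1) of the 2 groups, keeping genes that reached 1 FPKM in 4 or more of their libraries: eBayes with a trend, 2-sided, Benjamini-Hochberg over all genes, called under 0.05. The fit was tested on simulated data. Alternatives were other pseudocounts, filters and scalings, robust eBayes, 1 fit of 3 groups, a brown fat covariate, limma voom on recovered reads (median-ratio library sizes) and leaving out each rat. All 9 genes passed the filter in each comparison. The genes, lists and tests were chosen with earlier results of these data known. Named besides the 9 are called genes of the pathway lists and, for each member called in uremic against control, the 3 genes most alike; Rbpj, Nrarp, Dll1, Dll4, Hes3 and Hes5, which were not called, were chosen after their values were seen. Promoters come from RefSeq (GRCr8), matched by symbol for 9 of the 10 named genes, all but Hey1. Marker lists of other cells were summed per library; older symbols were matched through RefSeq.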

Additional observations from a re-analysis of the deposited data

Results flagged for a closer look

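In 27 sets of 4 or 5 values, 1 set per gene and group, 2 had an extreme rat by Dixon's test at its 95% critical value, which divides the distance to the nearest other rat by the whole range; chance gives about 1 in 20. Uremic rat 17 had 4.86 FPKM of Hes1, while the other uremic rats had 11.4 to 13.8 FPKM. Control rat 44 had 4.62 FPKM of Notch4, while the other control rats had 3.41 to 3.71 FPKM.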

How the results depend on the processing

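No paired analysis was possible because the groups share no rat numbers. In uremic against control aortas, Notch3 and Heyl stayed lower and past the test in all 11 alternatives and without each of the 10 rats in turn, with log2 differences of -0.87 to -0.65 and -1.30 to -1.09. In the same comparison 2 to 4 of the 9 genes were called when 1 rat was left out. In uremic against control with vitamin D, 1 of the 9 genes (Notch3) was called with equal totals, with 1 fit of 3 groups, with the brown fat covariate and with voom, and 0 in the other fits. In control with vitamin D against control, 0 to 1 of the 9 genes were called when 1 rat was left out.

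Over all genes, the calls in control with vitamin D against control numbered 13, but 3 without a filter, 8 with quantile normalization, 22 with the brown fat covariate and 0 to 393 without 1 rat (385 without control rat 46, 393 without rat 39, and 0 to 4 without any 1 of the other 7 rats). Between uremic rats and controls on vitamin D they numbered 1311, but 532 with the brown fat covariate and 659 to 1662 without 1 rat (659 without rat 36, 708 without 38, 857 without 20 and 871 without 9). Scaling to equal totals moved the median of all genes from 0.0050 to -0.10 in uremic against control. In uremic against control with vitamin D, that scaling moved it from 0.0058 to -0.12. In these comparisons equal totals gave 835 higher and 1584 lower calls against 1131 and 1046, and 526 and 1039 against 713 and 598.

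Signs turned only in differences that had not passed the test; the cause was not tested. Between uremic and control aortas Notch2 turned to -0.022 with equal totals, -0.0040 with quantile normalization and -0.092 with the brown fat covariate, Notch4 to -0.017 with quantile normalization and Jag1 to -0.054 with equal totals. Leaving out 1 rat gave -0.0060 to 0.16 for Notch2, -0.061 to 0.18 for Notch4 and -0.0092 to 0.10 for Jag1. In control with vitamin D against control, Notch2 turned to -0.00042 and -0.0026 with pseudocounts of 0.1 and 0.01 and to -0.0069 with quantile normalization, and Jag1 to 0.0033 with the brown fat covariate; leaving out 1 rat gave -0.29 to 0.22 for Notch2, -0.38 to 0.012 for Notch4 and -0.18 to 0.022 for Jag1. Against controls on vitamin D, in uremic rats the brown fat covariate turned Notch1 to 0.19, Notch2 to -0.34, Jag1 to -0.00029 and Hey1 to 0.16. Equal totals turned Notch2 to -0.062 and Jag1 to -0.016, and Hey2 turned to 0.14 with quantile normalization. Leaving out 1 rat gave -0.19 to 0.048 for Notch1, -0.15 to 0.36 for Notch2 and -0.13 to 0.14 for Hey2. Depth limits Hey1 (2 to 20 reads per library) and Hes1 (17 to 138) most.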
